A study of Mus musculus with 8 samples.

Results

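Transcript levels of the Mediator subunits and the TBP-associated factors (TAFs) were compared between wildtype and Brd2 heterozygous mouse striatum. The rule used gene names and no measured values: every gene whose name on the array was Med or Taf followed by a number (with an l after a Med number, or a letter from a to d after a Taf number) was taken. This gave 50 of the 30175 gene names on the array, 30 for Mediator and 20 for TAFs, carried by 76 probes. The brightest probe over all samples stood for each gene, and 48 of the 50 genes passed the filter on dim probes, 29 of Mediator and 19 TAFs. Of the remaining pair, Taf4b was well above background in 0 of 8 samples, and Med13 in 1 wildtype and 2 heterozygous samples, so neither was tested.

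The samples were striatal RNA from adult female C57Bl/6J mice, 4 wildtype and 4 carrying 1 gene-trapped copy of Brd2 (Brd2+/-). Both genotypes were offspring of heterozygous pairs of a line backcrossed to this strain, so the allele was absent from wildtype mice and was present in every tissue of the heterozygotes. The labels give the source tissue as prefrontal cortex and striatum together, while the sample descriptions name the striatum; 19 of 19 listed marker genes of striatal projection neurons passed the filter, and so did 10 of 11 markers of cortical excitatory neurons. Samples 1 and 3 of each genotype were labelled with Cy3 and samples 2 and 4 with Cy5, and each of 4 arrays carried a Cy3 and a Cy5 sample of the same genotype. Levels are normalized log2 intensities with the dye effect removed, and a difference is heterozygous minus wildtype on that scale, so that a difference of 1 is a factor of 2. The intensity of a probe depends on its sequence, and levels of different genes were not compared with each other.

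Mediator is a large complex that carries signals from transcription factors bound at enhancers and promoters to RNA polymerase II. Its head and middle modules contact the polymerase, its tail is the main docking surface for activators, and a separable kinase module regulates the joining of Mediator and polymerase. The TAFs assemble with the TATA-binding protein TBP into TFIID, which recognises core promoters, while a separate set of TAFs forms the promoter selectivity factor of RNA polymerase I. BRD2 is a bromodomain protein of the BET family that binds acetylated histones at active genes, and BET proteins are known to act together with Mediator and general transcription factors.

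The following probe sequences carry the differences described below, and they are given 5′ to 3′ as in the array files, in lower case with no part singled out. Positions are those of the files (mouse build mm9); whether a probe lies in a coding exon or elsewhere in its transcript was not analysed here. The first pair belongs to the members with the smallest p in either direction. For these, and for the brightest Taf10 probe, the first 30 of the 60 bases are shown.
Med15, chr16:17651333-17651392, minus strand, first 30 bases: gcactctggtgaaaattcccctttttatat
Med26, chr8:75018572-75018631, minus strand, first 30 bases: ctttagattcgtttgccttatggtcataaa
The next probes are shown because probes carrying the same gene name gave different values. Both Med7 probes lie on the plus strand of chromosome 11 with 20 bases between them.
Med7, brightest, chr11:46254623-46254682: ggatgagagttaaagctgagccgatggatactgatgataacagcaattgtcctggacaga
Med7, second, chr11:46254543-46254602: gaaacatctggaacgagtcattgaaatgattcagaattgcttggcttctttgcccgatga
Med6, brightest, chr12:82680558-82680617, minus strand: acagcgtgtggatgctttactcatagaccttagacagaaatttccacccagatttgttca
Med6, second, chr12:82674846-82674905, minus strand: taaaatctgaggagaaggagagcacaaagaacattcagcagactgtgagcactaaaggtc
Taf10, brightest, chr7:112891421-112891480, minus strand, first 30 bases: aacccagatgtatttgtctttccctctgtc
Taf10, second, chr7:112891799-112891945, minus strand, covering 147 genomic bases with 60: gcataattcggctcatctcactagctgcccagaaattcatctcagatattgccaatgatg
Taf9, brightest, chr13:101425744-101425803, plus strand: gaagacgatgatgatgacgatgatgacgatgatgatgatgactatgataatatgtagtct
Taf9 by the array's naming, Ak6 in RefSeq, chr13:101435915-101435974, plus strand: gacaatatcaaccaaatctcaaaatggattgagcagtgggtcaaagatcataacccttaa

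No Mediator or TAF gene passed the test. With limma and Benjamini-Hochberg adjustment over 19726 genes, 0 of 48 members had an adjusted p under 0.05, and the background was 0% of all genes, with a smallest adjusted p of 0.133. At an unadjusted p under 0.05, 2 of 48 members (4.17%) were counted, Med15 with the higher level in heterozygotes and Med26 with the lower, against 8.7% of all genes (3.91% higher and 4.79% lower). Of the 43 members with a value in every sample, 3 (6.98%) had groups that did not overlap, Med7 and Taf1a on the higher side and Med26 on the lower side. The background for such separation was also 8.7% of all genes (3.27% higher and 5.43% lower), near the members' share.

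Most members differed little in size as well. The median difference was -0.01 over the 48 members and -0.02 over all genes tested. In absolute size the median was 0.0962 for the members and 0.141 for all genes, and 2 members (4.17%) differed by more than 0.5, Med15 and Taf1c, against 6.17% of all genes. The 95% interval of the difference lay within 1 in either direction for 46 of 48 members (95.8%), a share that was 90.2% over all genes. The exceptions were Med15, at 0.36 to 1.26, and Taf1c, at -0.15 to 1.73. For 30 members (62.5%) the interval lay within 0.5, a factor of 1.41, against 48.2% of all genes. These intervals are bounds on the difference at this number of samples and do not show that the levels were equal.

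**Figure D1:**
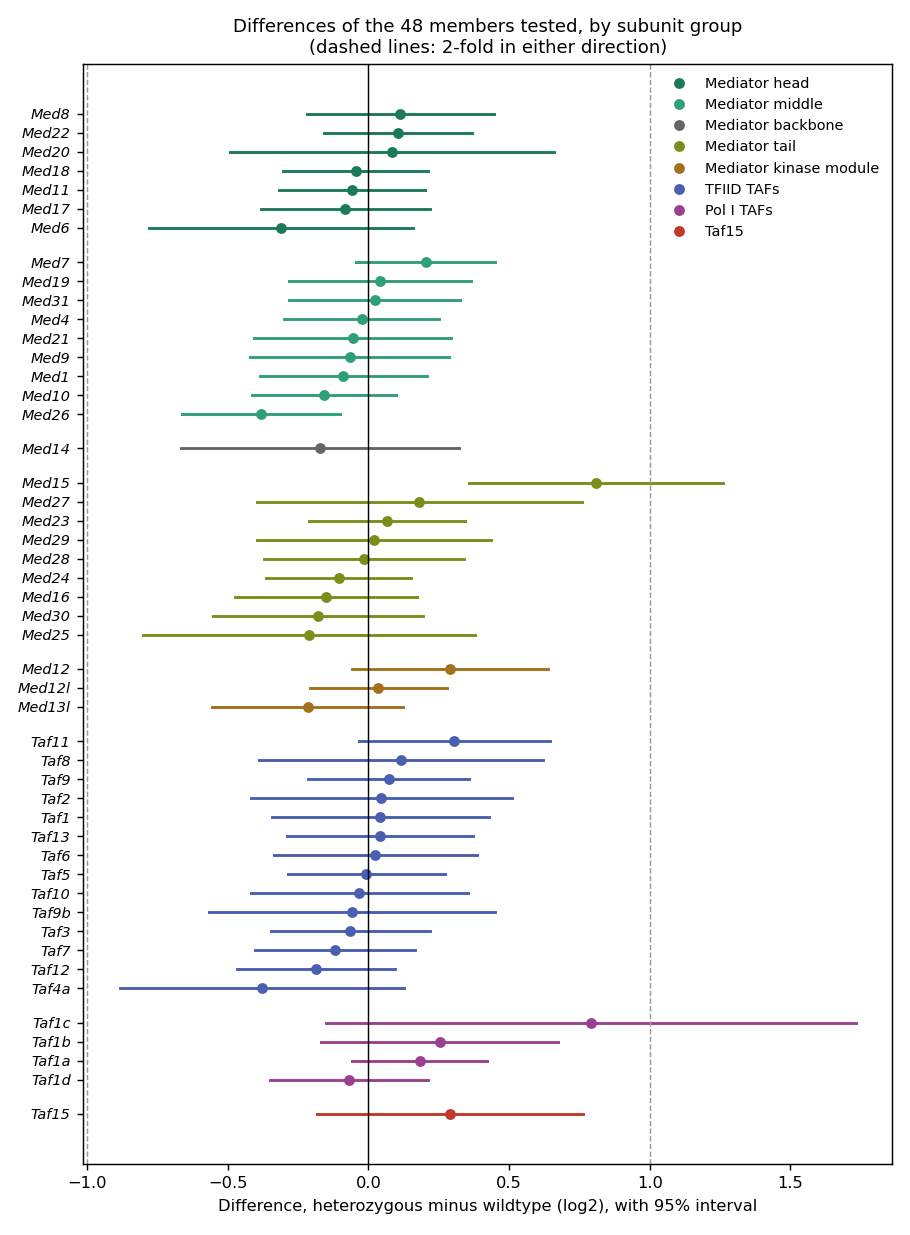
Difference between heterozygous and wildtype samples (log2) of each of the 48 members tested, grouped by Mediator module or TAF complex, with 95% intervals from the fit; dashed lines mark a factor of 2. All intervals but those of Med15 and Med26 include 0, and those of Med15 and Taf1c reach past 1.

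Both families lay close to 0 on either side. Among Mediator genes 12 of 29 had positive and 17 negative differences, with a median of -0.04. Among TAFs 11 of 19 were positive and 8 negative, with a median of 0.04; this median was negative in 2 of 24 alternative settings, reaching -0.03. By sample, the median of the Mediator genes relative to their wildtype mean ran from -0.07 to 0.05 in wildtype and from -0.04 to 0.06 in heterozygous samples. That of the TAFs ran from -0.02 to 0.09 in wildtype and from -0.07 to 0.13 in heterozygous samples. The ranges of the genotypes overlapped for both families.

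**Figure D2:**
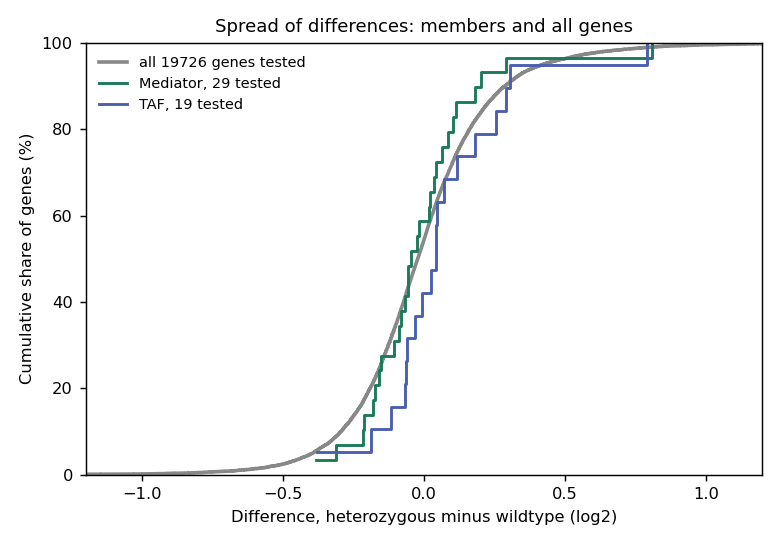
Cumulative share of genes (%) against the difference between heterozygous and wildtype samples (log2) for the Mediator genes, the TAFs and all 19726 genes tested. The members' curves run within the spread of all genes, with medians of -0.04 and 0.04 against -0.02.

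Within Mediator, the tail held the member with the smallest p. Med15, the tail subunit bound by activators of lipid metabolism genes, measured 10.52, 10.74 and 10.20 in wildtype samples 1 to 3 and 11.53, 11.35, 11.32 and 10.99 in heterozygous samples 1 to 4. Its spot was marked as an outlier in wildtype sample 4 and was left out there, so the fit rested on 7 samples. All 4 heterozygous values were above the 3 wildtype values. The difference was 0.81 with an SE of 0.19, a factor of 1.75, with an adjusted p of 0.432 in limma. With outlier spots kept, the difference was 0.89. It was 1.06 in the Cy3 samples alone and 0.43 in the Cy5 samples alone, where the unadjusted p was no longer under 0.05. Leaving out any of the 8 samples gave differences from 0.66 to 1.06. The array has 1 probe for Med15, so no further probe bears on this value.

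The other tail subunits lay on both sides of 0. Med23, which links Mediator to MAP kinase-responsive activators, ranged from 9.05 to 9.38 in wildtype and from 9.21 to 9.49 in heterozygous samples, a difference of 0.06 (SE 0.12, adjusted p = 0.882). Med16, Med24, Med25, Med27, Med28, Med29 and Med30 had differences from -0.21 for Med25 to 0.18 for Med27, each with overlapping groups or, for Med25 and Med27, without a value in wildtype sample 4. The median of the 9 tail genes was -0.02, with 4 positive and 5 negative. With the brightest probes, no tail member other than Med15 had an unadjusted p under 0.05. The second Med16 probe did, at -0.33, with log2 values of 11.07 to 11.71 against 16.87 to 17.53 for the brightest.

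The middle module held the member with the smallest p on the lower side. Med26, which couples Mediator to the elongation machinery and is present in only some Mediator complexes, measured 9.99, 9.98, 10.01 and 9.77 in wildtype samples 1 to 4 and 9.66, 9.54, 9.34 and 9.69 in heterozygous samples 1 to 4. The lowest wildtype value, in sample 4, lay just above the highest heterozygous value. The difference was -0.38 with an SE of 0.12, a level of 0.768 times wildtype, with an adjusted p of 0.504 in limma. It was -0.50 in the Cy3 samples alone and -0.26 in the Cy5 samples alone, in neither with an unadjusted p under 0.05. Without heterozygous sample 3, the lowest of its group, the difference was -0.29, still with an unadjusted p under 0.05.

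Med7, a structural subunit of the middle module, measured 10.78, 10.73, 10.68 and 10.74 in wildtype samples 1 to 4 and 11.04, 10.81, 10.83 and 11.06 in heterozygous samples 1 to 4. The groups did not overlap, by a margin of a few hundredths. The difference was 0.20 with an SE of 0.11 and an adjusted p of 0.617. The neighbouring Med7 probe printed above gave -0.14 with an SE of 0.18, so the separation was seen with the brightest probe and not with the one 20 bases away.

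Among the remaining middle subunits, Med10 measured 11.54, 11.44 and 11.50 in wildtype samples 1, 3 and 4 and 11.39, 11.38, 11.29 and 11.28 in heterozygous samples 1 to 4, with the wildtype sample 2 spot left out as an outlier. All 4 heterozygous values were below the 3 wildtype values, and the difference was -0.16 with an SE of 0.11 and an adjusted p of 0.678. Its brightest probe carries a GenBank accession that is not among those matched to RefSeq here. Med1, the subunit contacted by nuclear receptors, ranged from 11.97 to 12.15 in wildtype and from 11.80 to 12.23 in heterozygous samples, a difference of -0.09 (SE 0.13, adjusted p = 0.843). Med4, Med9, Med19, Med21 and Med31 had differences from -0.07 for Med9 to 0.04 for Med19. The median over the 9 middle genes was -0.06, with 3 positive and 6 negative.

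In the head module, which contacts the polymerase, the differences were small apart from that of Med6. Med6 measured 9.83, 9.67, 10.20 and 9.72 in wildtype samples 1 to 4 and 9.67, 9.92, 9.10 and 9.48 in heterozygous samples 1 to 4. The groups overlapped and heterozygous sample 3 was the lowest of all 8, with a difference of -0.31, an SE of 0.20 and an adjusted p of 0.669. It was -0.14 without heterozygous sample 3, -0.18 without wildtype sample 3 and -0.47, with an unadjusted p under 0.05, without heterozygous sample 2. Its second probe, printed above, gave a difference of 0.60 with an SE of 0.35, on the opposite side. Med17, the scaffold subunit of the head, ranged from 9.64 to 10.05 in wildtype and from 9.67 to 9.98 in heterozygous samples, a difference of -0.08 (SE 0.13, adjusted p = 0.859). Med8, Med11, Med18, Med20 and Med22 had differences from -0.06 for Med11 to 0.11 for Med8, and the median of the 7 head genes was -0.04; the Med20 spot of wildtype sample 4 was left out as an outlier. Med14, the backbone that joins head, middle and tail, measured 11.95, 11.97, 12.54 and 11.97 in wildtype samples 1 to 4 and 12.14, 12.23, 11.46 and 11.91 in heterozygous samples 1 to 4. Its groups overlapped (difference -0.17, SE 0.21, adjusted p = 0.814), and the difference was 0.01 without heterozygous sample 3, -0.0035 without wildtype sample 3, -0.27 without heterozygous sample 1 and -0.30 without heterozygous sample 2.

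Of the kinase module, Med12, Med12l and Med13l were tested. Med12, the X-linked subunit that activates the module's kinase, measured 9.87, 9.93, 10.34 and 10.07 in wildtype samples 1 to 4 and 10.26, 10.62, 10.32 and 10.17 in heterozygous samples 1 to 4. Wildtype sample 3 lay among the heterozygous values, and the difference was 0.29 with an SE of 0.15 and an adjusted p of 0.615. It was 0.18 without heterozygous sample 2 and 0.41, with an unadjusted p under 0.05, without wildtype sample 3. A further Med12 probe gave 0.07 with an SE of 0.09. Its paralog Med12l had a difference of 0.03 (SE 0.11). Med13l, the paralog of Med13, measured 8.13, 7.79, 7.74 and 7.67 in wildtype samples 1 to 4 and 7.55, 7.55, 7.48 and 7.89 in heterozygous samples 1 to 4. Heterozygous sample 4 lay within the wildtype range and the other heterozygous samples below it, with a difference of -0.22, an SE of 0.15 and an adjusted p of 0.676. It was -0.097 without wildtype sample 1 and -0.34 without heterozygous sample 4. In the Cy3 samples alone it was -0.42, and in the Cy5 samples alone -0.012. The Med13l probe was well above background in only 2 samples of each genotype.

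The kinase and cyclin of this module bear other names and are no members by the rule; their values are given beside it. Cdk19, the paralog of the kinase Cdk8, measured 10.23, 10.33, 10.32 and 10.31 in wildtype samples 1 to 4 and 10.12, 10.11, 10.06 and 9.98 in heterozygous samples 1 to 4. The groups did not overlap, and the difference was -0.23 with an SE of 0.09 and an adjusted p of 0.55 in limma. Cdk8 (difference -0.15, SE 0.25) and the cyclin Ccnc (-0.09, SE 0.18) had overlapping groups. Thus 1 of the 3 partners had an unadjusted p under 0.05, on the lower side, and none passed after adjustment.

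**Figure D3:**
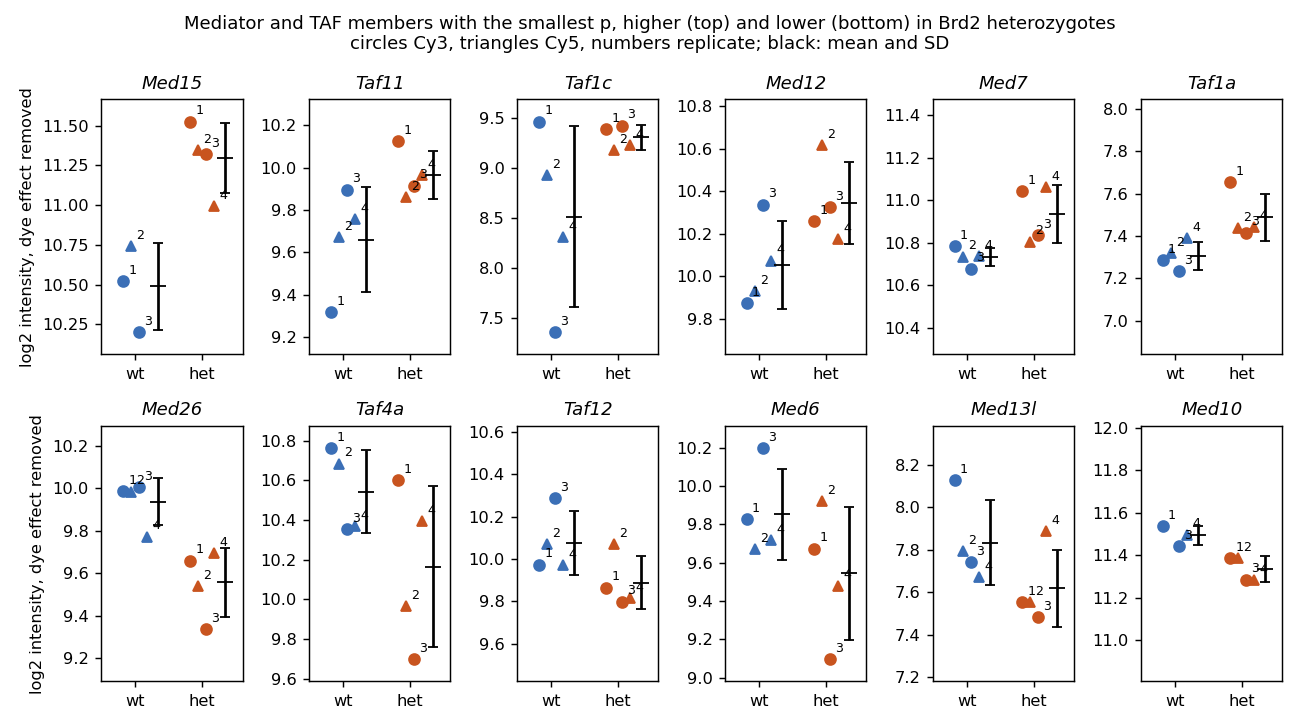
Log2 intensity by sample, dye effect removed, of the 6 members with the smallest p on the higher side (top) and on the lower side (bottom); circles are Cy3 and triangles Cy5 samples, numbers are replicates, and black bars are means with SD. Groups are separate in Med15, Med7, Taf1a, Med26 and Med10, with 1 wildtype spot missing in Med15 and in Med10, and overlap in the other panels.

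Among the TAFs of TFIID, 14 of 15 were tested, and 7 had positive and 7 negative differences, with a median of 0.01. Taf11, which forms a histone-fold pair with Taf13, measured 9.32, 9.67, 9.90 and 9.76 in wildtype samples 1 to 4 and 10.12, 9.86, 9.91 and 9.96 in heterozygous samples 1 to 4. Wildtype sample 3 lay between the heterozygous values and the other wildtype samples below them. The difference was 0.31 with an SE of 0.15 and an adjusted p of 0.593. It was 0.16 without wildtype sample 1 and 0.41, with an unadjusted p under 0.05, without wildtype sample 3. Its partner Taf13 had a difference of 0.04 (SE 0.14). Taf11 lies 6.21 Mb from Brd2 on chromosome 17 by the probe positions. Taf8 and Med20 on that chromosome lie 13.4 and 13.5 Mb away, with differences of 0.12 (adjusted p = 0.884) and 0.09 (adjusted p = 0.929).

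On the lower side of TFIID, Taf4a (Taf4 in RefSeq), a scaffold subunit that contacts activators, measured 10.76, 10.68, 10.35 and 10.37 in wildtype samples 1 to 4 and 10.60, 9.96, 9.70 and 10.39 in heterozygous samples 1 to 4. Heterozygous samples 2 and 3 were below every wildtype sample and samples 1 and 4 within the wildtype range. The difference was -0.38 with an SE of 0.22 and an adjusted p of 0.645. It was -0.18 without heterozygous sample 3 and -0.55, with an unadjusted p under 0.05, without heterozygous sample 1. Taf12, the histone-fold partner of Taf4, measured 9.97, 10.07, 10.29 and 9.97 in wildtype samples 1 to 4 and 9.87, 10.07, 9.80 and 9.82 in heterozygous samples 1 to 4. Only heterozygous sample 2 reached the wildtype range, and the difference was -0.19 with an SE of 0.12 and an adjusted p of 0.666. Without wildtype sample 3 it was -0.11, and without heterozygous sample 2 it was -0.26.

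Taf1, the largest TFIID subunit, with paired bromodomains, ranged from 9.11 to 9.57 in wildtype and from 9.15 to 9.66 in heterozygous samples, a difference of 0.04 (SE 0.17, adjusted p = 0.953). Taf5, a scaffold shared by both lobes of TFIID, ranged from 8.22 to 8.40 and from 8.13 to 8.48, a difference of -0.01 (SE 0.12, adjusted p = 0.991). Taf7, which binds Taf1, ranged from 7.70 to 8.06 and from 7.67 to 7.89, a difference of -0.12 (SE 0.12, adjusted p = 0.775). In each of these 3 genes the ranges of the genotypes overlapped. The Taf7 probe was well above background in only 2 samples of each genotype, and the Taf5 probe in 2 wildtype and 3 heterozygous samples. Taf9, a histone-fold subunit shared with the SAGA coactivator, ranged from 11.46 to 11.64 in wildtype and from 11.47 to 11.85 in heterozygous samples, a difference of 0.07 (SE 0.12, adjusted p = 0.873). Its X-linked paralog Taf9b ranged from 8.41 to 8.96 and from 7.996 to 8.84, a difference of -0.06 (SE 0.22, adjusted p = 0.948). Taf10, also shared with SAGA, ranged from 12.79 to 13.48 and from 12.92 to 13.28, a difference of -0.03 (SE 0.17, adjusted p = 0.966). Taf2, Taf3 and Taf6 had differences from -0.07 for Taf3 to 0.04 for Taf2. No TFIID subunit had groups that did not overlap.

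The 4 TAFs of the RNA polymerase I selectivity factor had a median of 0.22, with 3 positive and 1 negative and with no unadjusted p under 0.05. Taf1a, whose probe the files place on an unplaced part of chromosome 1, measured 7.28, 7.32, 7.23 and 7.39 in wildtype samples 1 to 4 and 7.65, 7.44, 7.42 and 7.44 in heterozygous samples 1 to 4. The groups did not overlap, by a margin of a few hundredths, and the probe was well above background in only 2 samples of each genotype. Its difference was 0.18 with an SE of 0.10 and an adjusted p of 0.641, and it was 0.12 without heterozygous sample 1 and 0.033 with 75th percentile scaling. Taf1c measured 9.46, 8.93, 7.36 and 8.31 in wildtype samples 1 to 4 and 9.39, 9.18, 9.43 and 9.23 in heterozygous samples 1 to 4. The wildtype samples were spread over a range much wider than that of the heterozygotes, and the difference of 0.79 (SE 0.41, adjusted p = 0.612) was 0.30 without wildtype sample 3 and 1.21, with an unadjusted p under 0.05, without wildtype sample 1. Taf1b had a difference of 0.25 (SE 0.18) and Taf1d of -0.07 (SE 0.12), both with overlapping groups.

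Taf15, an RNA-binding protein of the FET family that is found with a part of TFIID, measured 8.30, 8.54, 8.46 and 8.46 in wildtype samples 1 to 4 and 8.43, 9.01, 9.14 and 8.32 in heterozygous samples 1 to 4. Heterozygous samples 2 and 3 were above every wildtype sample and samples 1 and 4 within the wildtype range. The difference was 0.29 with an SE of 0.21 and an adjusted p of 0.687. It was 0.19 without heterozygous sample 2, 0.10 without sample 3 and 0.51 without sample 4 of that genotype.

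Other genes of the basal machinery and of SAGA were listed beside the members. Of 17 tested genes of the general factors TFIIA to TFIIH, 1 had an unadjusted p under 0.05, Gtf2h4 of the TFIIH core, with a difference of -0.34 (adjusted p = 0.504). Of 13 RNA polymerase II subunits, 0 had an unadjusted p under 0.05 and the median was -0.07. Of 16 SAGA genes other than the shared TAFs, 1 did, the adaptor Tada1 at -0.91 (adjusted p = 0.542); the acetyltransferase Kat2a had the highest difference of that list, 0.96 (adjusted p = 0.595), and the median was 0.02. Tbp itself had a difference of -0.29 (SE 0.17, adjusted p = 0.652), and the 3 tested genes of its family a median of -0.17. Among the 3 TAF-like genes that the naming rule leaves out, 1 had an unadjusted p under 0.05, Taf7l, a paralog of Taf7, at -0.36 (adjusted p = 0.504). Taf5l and Taf6l, which are also counted among the 16 SAGA genes, had -0.03 and 0.03. None of these genes passed adjustment.

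Further probes for the same gene names gave a second reading of some members, although 1 of them matches another gene. Of the 50 members 21 had more than 1 probe, and 21 further probes in 17 members passed the filter. Their differences had the sign of the brightest probe in 10 of 21 cases, or 10 of 20 without the Ak6 probe, with a median gap of 0.139 between probes of a gene. The gap was over 0.5 for 2 probes, of Med6 and of Med27, whose second probe gave -0.33 (SE 0.31) against 0.18. Of the 21 further probes 2 had an unadjusted p under 0.05, Med16 at -0.33 (over all probes, adjusted p = 0.557) and Taf10 at 0.45 (adjusted p = 0.548). The share over all probes was not counted. By the brightest probe it was 8.7% of all genes, so the count alone does not set these probes apart. The brightest probes of Med16 and Taf10 gave -0.15 and -0.03, so the Taf10 difference appeared only with the probe that spans 147 genomic bases. The probe named Taf9 that matches Ak6, an adenylate kinase gene that shares a locus with Taf9, gave -0.24 (SE 0.11, adjusted p = 0.572) and did not stand for Taf9 in the values above.

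**Figure D4:**
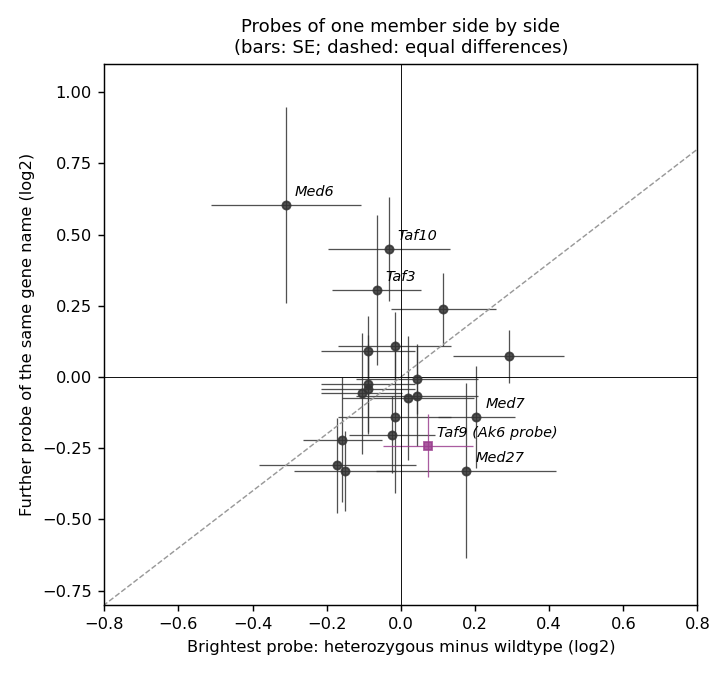
Difference between heterozygous and wildtype samples (log2) of the brightest probe of a member against that of each further probe with the same gene name, with SE bars; the dashed line marks equal values and the square the Ak6 probe. Of the 21 points 10 have the same sign on both axes, and Med6 lies farthest from the line, at -0.31 against 0.60.

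The members' start regions were described from RefSeq promoters (build GRCm38.p6, 300 bases each), which were matched by symbol for 43 of the 50 genes; Med8, Med23, Med24, Med30, Taf2, Taf4b and Taf7 were not matched. The first listed promoter of each gene was used. In the promoters of the 43 members the median number of CpG dinucleotides was 20, from 4 to 61. It was 19 for the 11172 genes tested here that had a promoter and 7 for all 27025 genes with a listed promoter. The TATA-box letters TATAAA, on either strand, were present in 7 of 43 (16.3%) against 9.05% of the genes tested here and 14.2% of all genes with a listed promoter. The 7 were Med7, Med16, Med28, Taf5, Taf6, Taf11 and Taf13. CCAAT was present in 39.5% against 38.2% and 37.9%, GGGCGG in 67.4% against 58.4% and 35.9%, and CTTCCG in 41.9% against 26.9% and 17.2%. These are matches of letters and not binding sites, and they were not tested.

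The same samples differed in other ways that bear on reading these values. Brd2 itself was at 55.4% of the wildtype level (difference -0.85, SE 0.19, adjusted p = 0.429 in limma). An exact two-sided permutation test gave p = 0.0286, the smallest that 4 against 4 allows. That test exchanged the 8 samples freely, although each array carried samples of only 1 genotype. The library labelled heterozygous sample 3, at 12.44, lay next to the lowest wildtype value, 12.52. The level of 55.4% is from the brightest Brd2 probe. Over the mean of all Brd2 probes the difference was -0.28, and there and in the Cy3 samples alone (-0.63) the unadjusted p was not under 0.05. Cortical excitatory neuron markers were positive in 10 of 10 genes, 6 (60%) with an unadjusted p under 0.05, against 8.7% of all genes, and 0 after adjustment. The range of their median level was -0.24 to 0.70 in wildtype and 0.39 to 1.72 in heterozygous samples. Striatal projection neuron markers were negative in 19 of 19 genes, 5 of them (26.3%) with an unadjusted p under 0.05, against 8.7% of all genes. Among these 5 was Ido1, at -1.14, whose adjusted p of 0.133 in limma was the smallest of all genes tested. The marker list was chosen with earlier results of these data known. Its medians were -0.07 to 0.09 in wildtype and -0.96 to 0.14 in heterozygous samples. Choroid and ependymal markers reached 1.94 in heterozygous sample 3, against -0.61 to 0.34 in the other samples, and that sample was the lowest of its group for 18 members and the highest for 13. Markers of neighbouring brain regions had medians of 2.21 in heterozygous sample 3 and 0.95 in sample 4, against -0.51 to 0.25 in the other samples. Of the 6 tested, 5 had positive differences and 1 a negative one, Tcf7l2 at -0.16. Only Slc17a6, at 1.14 (adjusted p = 0.425 in limma), had an unadjusted p under 0.05 and groups that did not overlap. The part of tissue composition and of these samples in the members' differences was not tested. Without heterozygous sample 3, 2 members (4.17%) had an unadjusted p under 0.05, against 11.2% of all genes. Without heterozygous sample 4 the count was also 2 (4.17%), against 4.04% of all genes. In both settings 0 members passed adjustment. In such bulk RNA, fewer cells of a type and less RNA per cell cannot be told apart. Between 37.7% and 47.6% of spots were well above background in Cy3 and between 65.9% and 75.5% in Cy5, so that 8 samples on 4 arrays and this detection limit the precision.

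**Figure D5:**
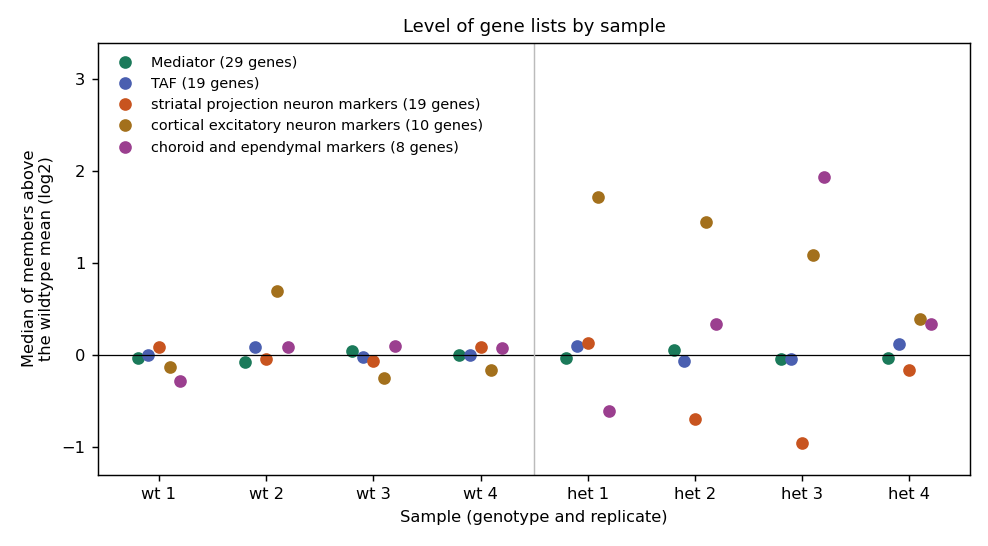
Median level of the Mediator genes, the TAFs and 3 sets of cell type markers in each sample, relative to the wildtype mean of each gene (log2). Mediator and TAF medians stay between -0.07 and 0.13 in all 8 samples, while the marker medians range from -0.96 to 1.94.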

How the data were processed

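Spot intensities were extracted by the authors with Agilent Feature Extraction 10.7.3.1, per the file headers. In the value table they deposited, values are the ratio of background-subtracted intensity to the column median, as found from the values, and served as an alternative. Intensities were corrected with normexp (offset 50) and normalized by loess and Aquantile in limma 3.58.1 (R 4.3.3); control spots and outlier spots were left out. A probe was kept if well above background in at least 4 of 8 samples, and the brightest probe stood for each gene name (19737 genes, 11 of them with no p). Genotype and dye were fixed effects and the array a random block (correlation 0.00839), tested with lmFit and eBayes over all genes with Benjamini-Hochberg adjustment. Each array held 1 genotype, and all 4 were on 1 slide. The design text calls the replicates biological without saying how many animals made up a sample, so that the p-values cover the spread among these samples only. RefSeq names were matched by accession for 67 of 76 member probes.

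The rule for the members uses names only, but the members and gene lists were chosen with earlier results of these data known. Values by sample are given for the 6 members with the smallest p in each direction, other members whose groups do not overlap, and members picked by role; Cdk8, Cdk19, Ccnc, Tbp and Brd2 were added as partners. The fit was tested on simulated data. Figures were drawn with matplotlib 3.10.9.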

Additional observations from a re-analysis of the deposited data

Results flagged for a closer look

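In 93 groups of 4 samples, those of the members with all 4 values and of Brd2, 13 values stood apart from the other 3 of their genotype. The gap, as a share of the group's range, was above Dixon's 95% critical value. For independent values chance gives about 1 group in 20. The values here had a dye effect shared by both genotypes removed, so that rate need not hold for them. Heterozygous sample 3 gave 5 of the 13 values. These were Taf13 at 10.52, Taf8 at 10.10 and Med8 at 11.94 on the high side, and Taf3 at 8.69 and Med20 at 9.48 on the low side. Heterozygous sample 2 gave a low Taf7 at 7.67 and a high Med21 at 10.19. Heterozygous sample 1 gave a high Taf1a at 7.65, which raised that gene's mean difference; it was 0.12 without this sample, against 0.18. In wildtype, sample 3 gave a low Taf2 at 10.15 and a high Med14 at 12.54, and sample 4 a high Med28 at 13.23 and a low Med26 at 9.77, the latter nearest to the heterozygous values. Wildtype sample 1 gave a high Taf9b at 8.96.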

How the results depend on the processing

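With limma and Benjamini-Hochberg adjustment, 0 members passed under each of the 24 alternatives run, and 0 at an adjusted p under 0.1. Over all genes, 1 passed with the mean of all probes and 1 in the Cy5 samples alone. The count of members with an unadjusted p under 0.05 was 2 (4.17%), against 8.7% of all genes. It was 3 (6.25%) with the scanner's processed signals, against 7.13%, and with 75th percentile scaling, against 5.98%. It was also 3 in the deposited value table, against 4.9%, and with the mean of all probes, against 8.69%. In the Cy3 samples alone it was 1 (2.08%), against 3.16%. With a trended, robust variance model, which held only the 43 members with complete values, it was 1 (2.33%), against 8.77%. When single samples were left out it ranged from 2 to 4. It was 4 (8.33%) without wildtype replicate 3, against 11.6%, and without heterozygous replicate 2, against 9.88%. Med15 kept its sign in 23 of 23 alternatives (0.43 to 1.06) with p under 0.05 in 22, Med26 in 24 of 24 (-0.50 to -0.26) with p under 0.05 in 21, and Brd2 in 24 of 24 (-1.08 to -0.28). Correlations between same-numbered samples of the genotypes were -0.289 to 0.166. They were taken after the dye effect was removed, and same-numbered samples share a dye. Removing that effect lowers such correlations, so they cannot show whether the replicate numbers pair the samples. With the replicate block in place of dye, 0 members passed, and the smallest adjusted p of a member was 0.361. In that setting 2 members (4.17%) had an unadjusted p under 0.05, against 10.3% of all genes. Signs changed for 11 of the 23 members followed, none of them past the threshold; most were near 0, but Med6 was -0.31 and Med14 -0.17 in the values reported. With the scanner's processed signals Med23 was -0.011, Taf5 0.031 and Taf7 0.045; with quantile normalization Taf1 was -0.021; in the deposited value table Taf5 was 0.033 and Taf9b 0.0021; with the mean of all probes Med6 was 0.15, Taf1 -0.010, Taf9 -0.085 and Taf10 0.039; the Taf9 mean includes the probe that matches Ak6, and Taf9's own probe stayed at 0.07. In Cy3 alone Med17 was 0.11, Taf1 -0.072 and Taf7 0.0041; in Cy5 alone Med6 was 0.0054, Med1 0.021, Med14 0.10, Med23 -0.0041, Taf5 0.010 and Taf9b 0.23. With single samples left out, the ranges were -0.018 to 0.12 for Med23, -0.089 to 0.073 for Taf5, -0.28 to 0.16 for Taf9b, -0.18 to 0.12 for Taf10, -0.091 to 0.17 for Taf1, -0.30 to 0.011 for Med14 and -0.034 to 0.15 for Taf9. The cause of these changes was not tested.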
